A study of Homo sapiens with 12 samples.

Results

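Ezrin (EZR), radixin (RDX), moesin (MSN) and merlin (NF2) were described together with the giant scaffold genes AHNAK and AHNAK2 and the annexin genes ANXA1 and ANXA2. These 8 genes, of 60675 in each deposited count table, were found by symbol, with 1 gene ID each. The set was selected on measured values: EZR and AHNAK were picked because their counts were lower after knockdown in HCC1187, and their relatives were added by family. The HCC1187 knockdown values of all 8 genes are therefore given as a description, without a p-value.

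The samples were 2 triple-negative breast cancer cell lines, MDA-MB-468 (grown in DMEM) and HCC1187 (grown in RPMI-1640), both labelled as basal-like. Each line was transfected for 48 hours with an sh-LacZ control shRNA or with an shRNA against the long non-coding RNA SOX9-AS1 (sh-SOX9-AS1), giving 4 groups of 3 libraries of messenger RNA. In MDA-MB-468 the controls are called S1, S2 and S3 and the knockdown libraries S4, S5 and S6. In HCC1187 they are S7, S8 and S9, and S10, S11 and S12. No label states that libraries of one group came from separate cultures, so p-values measure only the spread between these libraries, which may be technical. The names of the knockdown columns also hold the word BLANCO, whose meaning no label gives.

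ERM proteins (ezrin, radixin, moesin) bind membrane lipids and receptor tails through an amino-terminal FERM domain and filamentous actin through their carboxy-terminal tail. They are held closed by contact between both ends and opened by phosphoinositide binding and phosphorylation, and in epithelial cells ezrin builds microvilli and the apical cortex. Merlin shares the FERM domain, lacks the ERM actin-binding tail, and feeds into the Hippo kinases that restrain YAP and TAZ. AHNAK and AHNAK2 encode very large, repetitive proteins of the membrane cortex, and AHNAK binds the complex of annexin A2 with S100A10. Annexins A1 and A2 bind phospholipids in the presence of calcium. Annexin A1 acts in inflammation control and membrane traffic, and annexin A2 in membrane repair, endocytosis and plasmin generation at the cell surface.

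On GRCh38 (GENCODE 29 coordinates), EZR lies at chr6:158765741-158819412 on the minus strand and MSN at chrX:65588377-65741931 on the plus strand. RDX lies at chr11:109864295-110296722 and AHNAK at chr11:62433542-62556235, both on the minus strand. NF2 is at chr22:29603556-29698598 on the plus strand, and AHNAK2 at chr14:104937244-104978357 on the minus strand. ANXA1 is at chr9:73151757-73170393 (plus) and ANXA2 at chr15:60347134-60402883 (minus). All 8 are protein coding. Annotated exons of other genes overlapped those of EZR for 24 bases (EZR-AS1, at most 0.166 CPM, counts scaled to the library total) and those of AHNAK2 for 547 bases (PLD4, at most 1.825 CPM), both on the opposite strand. The pseudogene ANXA2P2 held at most 1.68% as many counts as ANXA2.

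Upstream sequences are printed for EZR and AHNAK, the genes that led to the choice, and for AHNAK2, the AHNAK relative whose counts went the other way. Each line gives the 250 bases before the RefSeq start site (GRCh38.p14), read 5′ to 3′ on the strand of the gene, with capitals where a searched motif matched. The windows are chr6:158818236-158818485 for EZR, chr11:62545827-62546076 for AHNAK and chr14:104978375-104978624 for AHNAK2, each on the minus strand. Of the AHNAK window 72 bases lie in an exon of the non-coding gene AP001363.2.
EZR: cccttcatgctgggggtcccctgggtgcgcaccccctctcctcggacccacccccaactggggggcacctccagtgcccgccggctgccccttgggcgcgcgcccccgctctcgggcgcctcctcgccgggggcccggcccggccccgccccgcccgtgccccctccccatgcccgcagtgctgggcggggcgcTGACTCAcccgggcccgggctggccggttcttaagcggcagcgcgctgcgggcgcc
AHNAK: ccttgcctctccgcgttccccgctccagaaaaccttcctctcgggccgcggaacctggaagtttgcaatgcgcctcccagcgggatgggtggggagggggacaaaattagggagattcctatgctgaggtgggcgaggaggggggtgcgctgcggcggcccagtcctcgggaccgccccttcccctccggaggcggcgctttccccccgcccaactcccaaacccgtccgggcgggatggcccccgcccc
AHNAK2: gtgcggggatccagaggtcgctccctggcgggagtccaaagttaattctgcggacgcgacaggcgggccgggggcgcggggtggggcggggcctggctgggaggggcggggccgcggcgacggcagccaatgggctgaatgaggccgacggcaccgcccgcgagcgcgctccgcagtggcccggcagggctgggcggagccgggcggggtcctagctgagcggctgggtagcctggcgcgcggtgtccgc
The capitals in EZR mark TGACTCA, the site bound by AP-1 factors, whose first base lies 56 bases before the start. The motifs were searched on both strands in 300 bases around each start (250 before and 50 after), in 11 windows of the 8 genes. TGACTCA was found for EZR and ANXA2 and in 4.95% of 35097 windows of all genes. GGAATG, the core of the TEAD motif, was found for AHNAK alone of the 8 genes, 29 bases after its start, and in 14.0% of all windows. The RefSeq start used for AHNAK, 62545826, lies inside the GENCODE 29 span given above. The last bases of its window were found near the 5′ end of 0 of 8 AHNAK transcripts of GENCODE 29. For EZR and the printed AHNAK2 window they were found in 1 of 4 transcripts each. The AHNAK start was thus not matched to that annotation. AACAAT, a SOX motif, and the CArG box of SRF were found in 0 of the 11 windows, and in 10.1% and 1.29% of all windows. These are letter matches in a short window.

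All counts here are those of lane 1 of each library, and 24 of the 36 count columns were not used. Library totals in that lane ran from 6026376 to 10160040 counts, and each of the 8 genes had between 221 and 11688 counts in every library. All 8 passed the filter on low counts in every comparison. S4 stood apart from the other MDA-MB-468 knockdown libraries. Over 15491 genes its log2 levels had r = 0.9901, 0.9915 and 0.995 with the 3 controls, but 0.9756 with S5 and 0.9721 with S6, a pair whose own r was 0.9946. The lane 1 column name of S4 is also absent from the deposited sample tables, which hold 11 of the 12 lane 1 names. Names of its other lanes were not looked up there. Results in MDA-MB-468 are given with and without S4. The target SOX9-AS1 had 5.52, 6.7 and 5.95 CPM in the MDA-MB-468 controls, and its 3 knockdown libraries there had 5.04, 4.54 and 4.96 CPM (a log2 difference of −0.30 ± 0.20 (SE), edgeR adjusted p = 0.417; −0.32 ± 0.23, adjusted p = 0.274 without S4). In HCC1187 its controls had 2.54, 1.54 and 1.85 CPM, and the knockdown libraries 1.33, 0.771 and 0.886 CPM (−1.08 ± 0.36, adjusted p = 0.0349). These levels rest on few counts in lane 1, 24, 13 and 17 in the controls and 8, 5 and 9 in the knockdown libraries. SOX9 lies inside the span of SOX9-AS1 on the other strand, with no exon bases shared, and no source used here says whether counting used strand. SOX9 had a log2 difference of −0.49 ± 0.16 in HCC1187 (edgeR adjusted p = 0.0256). In MDA-MB-468 it had −0.68 ± 0.14 with all 6 libraries (adjusted p = 0.205) and −0.82 ± 0.10 without S4 (adjusted p = 2.03e-05). S4 had 136 CPM of SOX9, under the control range of 164 to 210 CPM. Of 10 epithelial and basal markers, 10 reached 1 CPM in MDA-MB-468 controls and 7 in HCC1187 controls, where KRT5, KRT14 and KRT19 averaged 0.0706, 0.0394 and 0.0716 CPM. The summed level of these 10 markers was 12374 to 13002 CPM in MDA-MB-468 controls and 10344 to 13243 CPM after knockdown. There KRT5 averaged 1386 CPM in the controls and 887 CPM after knockdown, and KRT17 567 and 259 CPM. KRT19 (1922 and 2210 CPM) and KRT8 (1623 and 1667 CPM) averaged higher after knockdown, and the other markers lower. In HCC1187 the sum was 569 to 591 CPM in the controls and 478 to 515 CPM after knockdown, without overlap. EZR, AHNAK and ANXA1 were also lower there. The markers that reached 1 CPM in HCC1187 did not all go the same way. KRT8 (199 and 176 CPM), FOXC1 (198 and 154 CPM), KRT17 and KRT18 averaged lower after knockdown. EPCAM (5.37 and 7.03 CPM), CDH1 (10.3 and 11.5 CPM) and EGFR (59.2 and 62.9 CPM) averaged higher. Summed over 8 fibroblast markers, levels were 16.1 to 16.8 CPM in MDA-MB-468 controls and 16.6 to 26.1 CPM after knockdown, with COL1A2, DCN, LUM and THY1 at 0. In HCC1187 they were 66.9 to 75.3 and 73.1 to 91.9 CPM, with COL1A2 and FAP at 0. The 7 leukocyte markers summed to 74.2 to 127 and 95.5 to 142 CPM in MDA-MB-468, nearly all from CD14, with CD3E, MS4A1, LYZ and NKG7 at 0, and to 2.48 to 4.34 and 2.95 to 4.48 CPM in HCC1187. The 4 endothelial markers summed to at most 19.9 CPM in any library. Of the 3 receptor genes that are low in triple-negative tumours, PGR was at 0 in MDA-MB-468, where ESR1 averaged 5.83 CPM in the controls and 7.07 CPM after knockdown and ERBB2 55.8 and 72 CPM. In HCC1187 PGR averaged 0.578 and 0.509 CPM, ESR1 0.189 and 0.0881 CPM and ERBB2 98.3 and 112 CPM. The part of these markers in the results was not tested.

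At baseline the 8 genes were graded steeply, and 7 of them were lower in HCC1187 than in MDA-MB-468. To compare levels between genes, CPM was divided by the deposited gene length in kilobases (RPKM). In the MDA-MB-468 controls EZR led with 137 ± 8.08 RPKM (SD, n = 3), followed by ANXA2 (129 ± 8.47) and ANXA1 (105 ± 3.91). MSN (72.1 ± 3.23) and AHNAK (63.0 ± 4.57) came next, then RDX (15.4 ± 1.14), NF2 (10.5 ± 0.756) and AHNAK2 (3.48 ± 0.204). The libraries of EZR and ANXA2 overlapped, so their order is not resolved, while the other neighbours were separate. EZR ranked 223 of 24885 genes with counts in that group and AHNAK2 ranked 8433.

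HCC1187 controls kept EZR at the top, at 79.4 ± 1.99 RPKM (rank 358 of 26401 genes), with MSN next at 40.8 ± 1.90. AHNAK (24.7 ± 0.77) and ANXA2 (24.3 ± 1.49) overlapped, and so did ANXA1 (21.1 ± 1.1) and RDX (20.9 ± 1.92). NF2 at 8.18 ± 0.109 and AHNAK2 at 1.61 ± 0.153 were again the lowest. The annexins thus stood near EZR in MDA-MB-468 and near RDX in HCC1187.

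**Figure D1:**
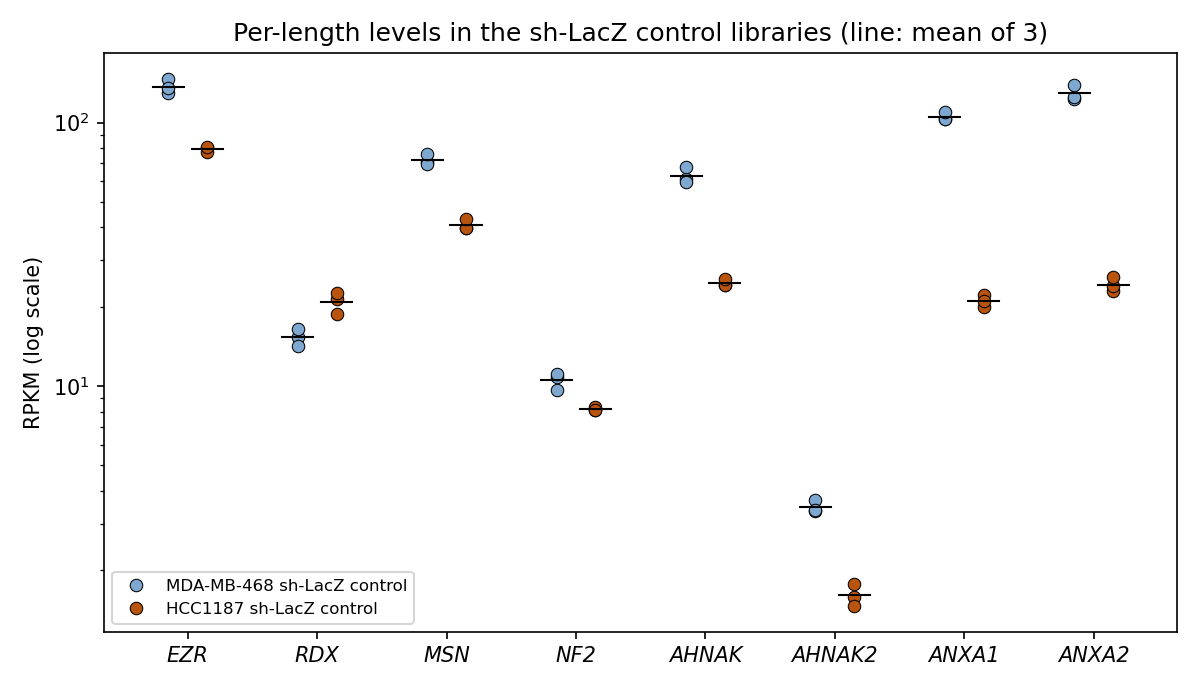
RPKM (log scale) of the 8 genes in the sh-LacZ control libraries of MDA-MB-468 (blue) and HCC1187 (orange); points are libraries and lines are means of 3. The annexins are farthest apart (ANXA2 129 and 24.3 RPKM), and RDX is the gene with the higher mean in HCC1187 (20.9 and 15.4 RPKM).

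In the test of the control libraries (HCC1187 against MDA-MB-468, 3 per line), all 8 genes passed at an adjusted p under 0.05, where 84.1% of the 15592 genes tested did. Of the 8, 7 were lower in HCC1187 (40.4% of all genes were) and 1 was higher (43.6% of all genes). ANXA2, with 1084, 1104 and 1222 CPM in MDA-MB-468 and 203, 212 and 229 CPM in HCC1187, was 6.23-fold lower (log2 −2.64 ± 0.08, edgeR adjusted p = 1.17e-17). ANXA1 was 5.88-fold lower, with 459, 460 and 490 CPM against 88.9, 98.6 and 94.1 CPM (log2 −2.56 ± 0.08, adjusted p = 5.93e-18). These annexins had larger differences than the other 6 genes. AHNAK had 1194, 1157 and 1326 CPM in MDA-MB-468 and 471, 472 and 497 CPM in HCC1187 (log2 −1.59 ± 0.08, adjusted p = 2.88e-14). AHNAK2 had 69.8, 62.9 and 63.4 CPM against 33.4, 29.8 and 27.7 CPM (log2 −1.34 ± 0.10, adjusted p = 2.58e-11). The differences of MSN (log2 −1.05 ± 0.07), EZR (−1.02 ± 0.07) and NF2 (−0.60 ± 0.08) were smaller (adjusted p = 1.58e-11, 2.13e-11 and 1.14e-06). RDX was the exception, with 130, 141 and 121 CPM in MDA-MB-468 and 183, 192 and 160 CPM in HCC1187 (log2 0.21 ± 0.08, adjusted p = 0.0169). That call was lost without S1 (adjusted p = 0.0557), S3 (0.0522), S7 (0.0502) or S8 (0.0826). With library totals as the only scaling, all genes shifted towards HCC1187 by a median of 0.23 in log2, and the 8 genes kept their directions (RDX 0.45, NF2 −0.36). The lines were grown in different media, so line and medium cannot be told apart. The HCC1187 controls are also those of the contrast that led to the choice of genes.

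In HCC1187 the knockdown libraries held lower EZR and AHNAK, the values that selected the set. For AHNAK the controls had 471, 472 and 497 CPM and the knockdown libraries S10, S11 and S12 had 199, 239 and 215 CPM. For EZR the controls had 264, 255 and 267 CPM and the knockdown libraries 135, 149 and 132 CPM. In both genes the groups were far apart and each group was tight. The fitted differences were 2.29-fold for AHNAK (log2 −1.20 ± 0.09 (SE)) and 1.96-fold for EZR (log2 −0.97 ± 0.09). In such bulk libraries fewer cells of a kind and less RNA per cell cannot be told apart.

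The other ERM genes differed less in that contrast. Radixin transcripts had 183, 192 and 160 CPM in the controls and 180, 185 and 171 CPM in the knockdown libraries, so the groups overlapped (log2 −0.05 ± 0.09). For MSN the values were 238, 238 and 257 CPM against 226, 219 and 200 CPM, which do not overlap (log2 −0.24 ± 0.08). Merlin (NF2) had 60.1, 61.4 and 59.9 CPM against 57.7, 51.8 and 44.4 CPM (log2 −0.30 ± 0.10), with the highest knockdown library just under the lowest control.

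AHNAK2 went the other way from AHNAK. Its HCC1187 controls had 33.4, 29.8 and 27.7 CPM and the knockdown libraries 53.3, 44.6 and 39.9 CPM, without overlap (log2 0.53 ± 0.12). ANXA1, the annexin of inflammation control, had 88.9, 98.6 and 94.1 CPM against 52.6, 66.2 and 59.9 CPM (log2 −0.71 ± 0.10), again without overlap. ANXA2, the partner of S100A10, had 203, 212 and 229 CPM against 179, 208 and 210 CPM, and its groups overlapped (log2 −0.16 ± 0.09). By the call rule 6 of the 8 were past an adjusted p of 0.05, beside 22.8% of the 14970 genes tested. Of these, 5 were lower (13.1% of all genes) and AHNAK2 was higher (9.78% of all genes). By libraries that do not overlap, EZR, MSN, NF2, AHNAK and ANXA1 were lower (15.5% of all genes) and AHNAK2 higher (24.0% of all genes). Since this contrast picked the genes, nothing is read from those counts. Of all genes past the threshold 42.8% were higher with trimmed-mean scaling and 57.7% with library totals alone. Under library totals AHNAK had −1.14, EZR −0.92, AHNAK2 0.59 and RDX 0.

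**Figure D2:**
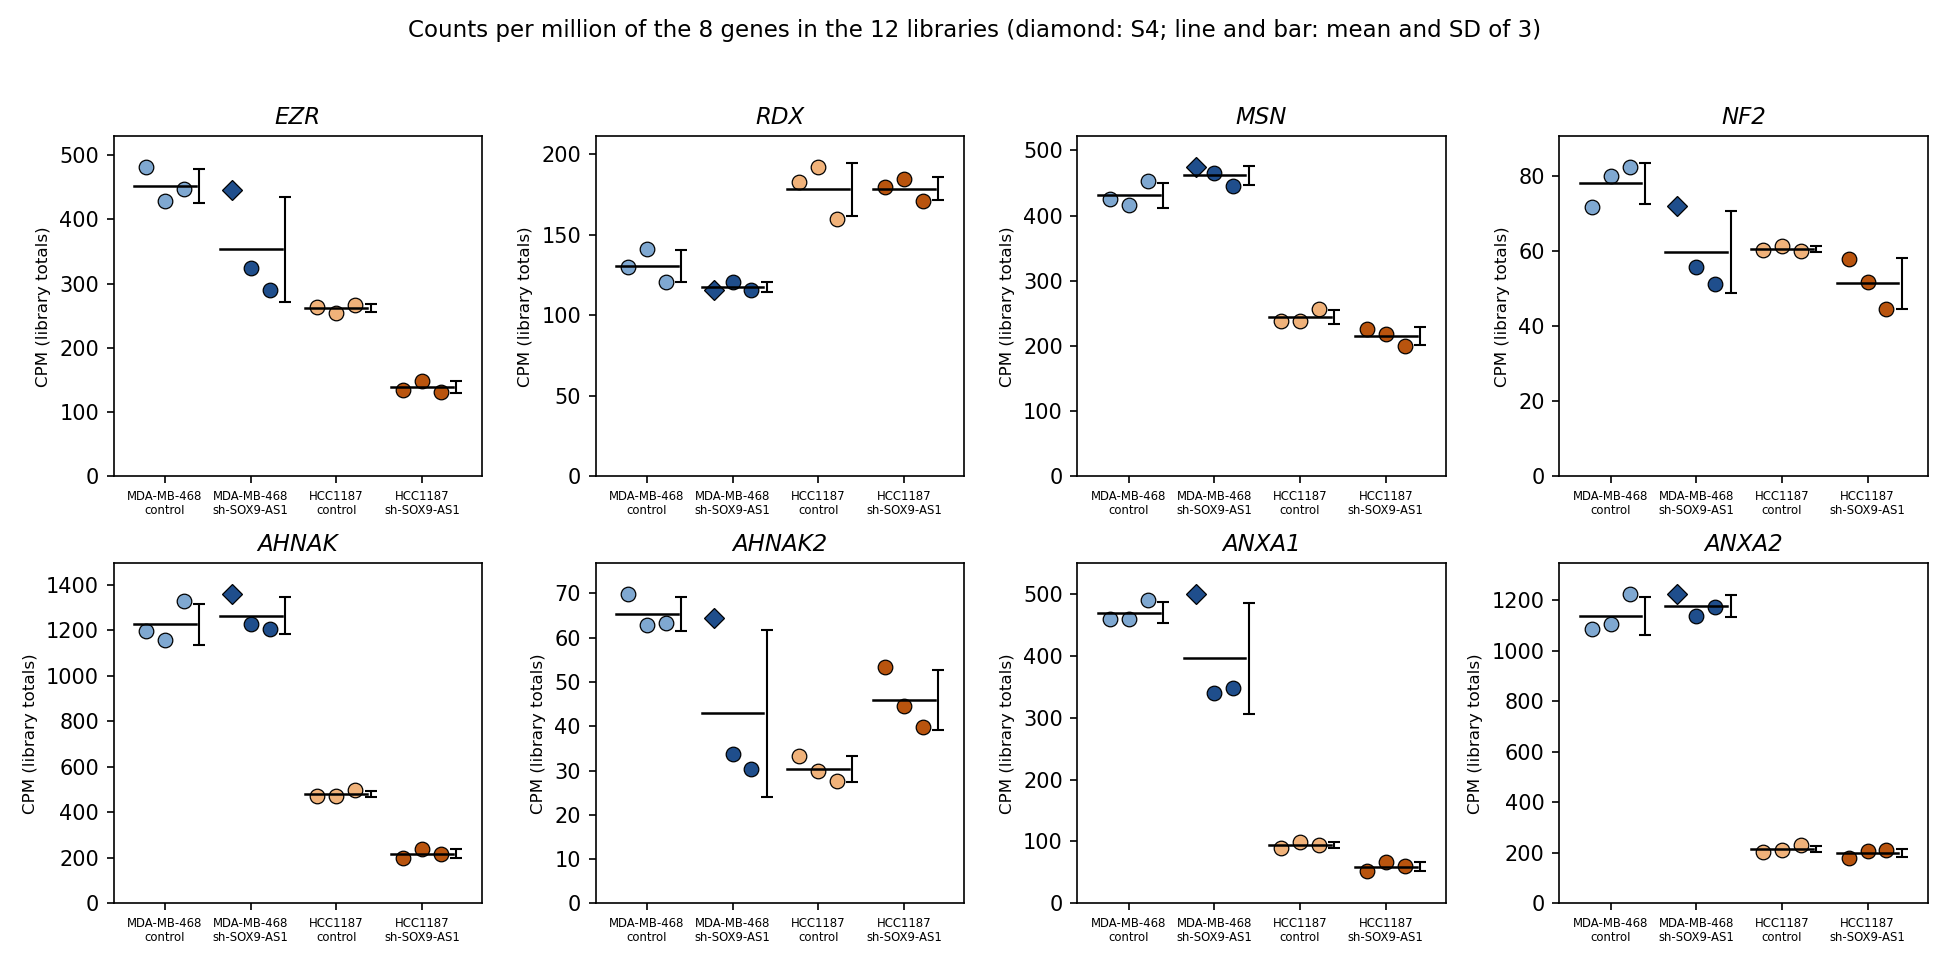
CPM of each of the 8 genes in every library, by group; points are libraries (S4 as a diamond), lines are means and bars SDs of 3 libraries. EZR (132 to 149 and 255 to 267 CPM) and AHNAK (199 to 239 and 471 to 497 CPM) are separated in HCC1187, and S4 lies within or just above the MDA-MB-468 control range for EZR, NF2, AHNAK2 and ANXA1.

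In MDA-MB-468, a contrast not named as the one that picked EZR and AHNAK, none of the 8 genes passed with all 6 libraries. The members were chosen with earlier results of these data known, so this contrast may not be independent of the choice. The edgeR quasi-likelihood test passed 0 of 8, as did DESeq2 and limma-voom, and 2 of 8 (NF2 and AHNAK2) had an unadjusted p under 0.05. Over the 13638 genes tested the share called in edgeR was 0.00733%, and 2554 of them had an unadjusted p under 0.05. By libraries, 1 of the 8 (RDX) had groups that did not overlap, beside 21.9% of all genes. EZR had 481, 428 and 447 CPM in the controls, and S4, S5 and S6 had 446, 324 and 290 CPM (log2 −0.33 ± 0.16, adjusted p = 0.282). S4 lay inside the control range, and S5 and S6 lay well under it. The same split held for AHNAK2, with 69.8, 62.9 and 63.4 CPM against 64.5, 33.8 and 30.4 CPM (log2 −0.59 ± 0.25, adjusted p = 0.263). With no filter on low counts AHNAK2 passed (log2 −0.60 ± 0.16, adjusted p = 0.00763), the only call among the 8 with all 6 libraries in the alternatives run. NF2 had 71.6, 79.9 and 82.2 CPM against 71.9, 55.8 and 51.1 CPM (log2 −0.37 ± 0.14, adjusted p = 0.23).

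ANXA1 showed the split too, with 459, 460 and 490 CPM in the controls and 499, 340 and 348 CPM in the knockdown libraries (log2 −0.23 ± 0.15, adjusted p = 0.412). The 4 remaining genes showed no such split. AHNAK had 1194, 1157 and 1326 CPM against 1357, 1227 and 1206 CPM (log2 0.07 ± 0.10, adjusted p = 0.72). ANXA2 had 1084, 1104 and 1222 CPM against 1222, 1137 and 1171 CPM (log2 0.07 ± 0.09, adjusted p = 0.671). In both of these abundant transcripts the groups overlapped. MSN had 425, 416 and 453 CPM against 474, 466 and 445 CPM (log2 0.12 ± 0.09, adjusted p = 0.46). RDX had 130, 141 and 121 CPM against 116, 121 and 116 CPM, which touch when rounded (log2 −0.13 ± 0.10, adjusted p = 0.467).

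Without S4 (3 controls and S5 and S6), 4 of the 8 genes were lower past the threshold, 0 higher and 4 did not pass. S4 was set apart because its levels resemble the controls, so leaving it out itself favours a difference, and the p-values of this fit are too small and are given as a description. Of the 13947 genes tested in this fit 40.7% were called. By direction, 50% of the 8 genes were lower beside 20.7% of all genes, and 0% higher beside 20.0%. AHNAK2 had a log2 fold change of −1.0 ± 0.11 (edgeR adjusted p = 4.36e-06) and EZR of −0.54 ± 0.08, or 1.45-fold (adjusted p = 0.000145). NF2 had −0.52 ± 0.10 (adjusted p = 0.000853) and ANXA1 −0.43 ± 0.08 (adjusted p = 0.000539). AHNAK had a log2 fold change of 0.01 ± 0.08, ANXA2 of 0.04 ± 0.08, MSN of 0.10 ± 0.08 and RDX of −0.12 ± 0.09, none of which passed (adjusted p = 0.921, 0.688, 0.319 and 0.302). Leaving out any of the other 5 libraries gave none of the 8.

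**Figure D3:**
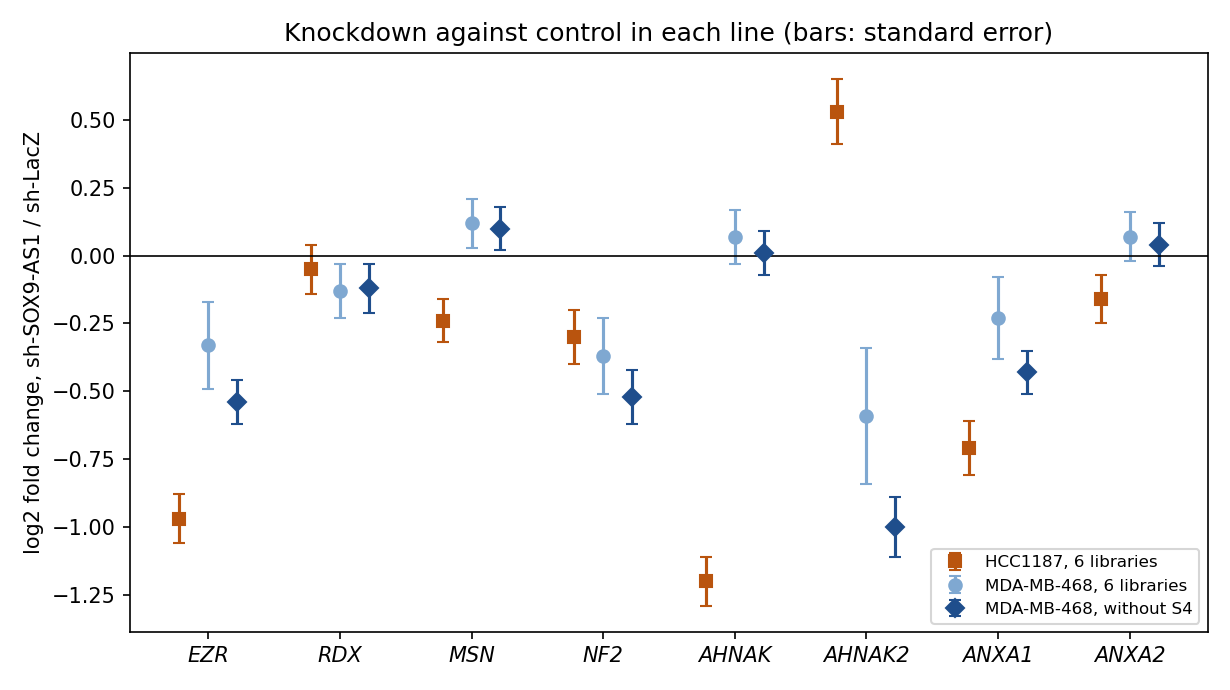
Log2 fold change of sh-SOX9-AS1 over sh-LacZ for each gene in HCC1187 (squares), MDA-MB-468 with all 6 libraries (circles) and without S4 (diamonds); bars are standard errors. AHNAK lies at −1.20 in HCC1187 and at 0.07 in MDA-MB-468, and AHNAK2 lies at 0.53 and −0.59.

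Side by side, EZR had −0.97 in HCC1187, and in MDA-MB-468 −0.33 with all 6 libraries and −0.54 without S4. In the same order ANXA1 had −0.71, −0.23 and −0.43, and AHNAK had −1.20, 0.07 and 0.01. AHNAK2 had 0.53, −0.59 and −1.0, and RDX had −0.05, −0.13 and −0.12. NF2 had −0.30, −0.37 and −0.52, MSN had −0.24, 0.12 and 0.10, and ANXA2 had −0.16, 0.07 and 0.04. None of them passed in MDA-MB-468 with all 6 libraries, and leaving out S4 itself favours a difference. Whether the response differs between the lines was not tested, since the HCC1187 contrast picked the genes.

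Within the ERM family the ezrin share was lower in the HCC1187 knockdown libraries and the shares of RDX and MSN were higher. Shares of one sum move together. Mean levels there were 178 CPM (control) and 179 CPM (knockdown) for RDX, and 244 and 215 CPM for MSN. The ezrin share of the summed RPKM of EZR, RDX and MSN was 56.7%, 55.4% and 56.7% in the HCC1187 controls and 41.1%, 43.6% and 42.9% after knockdown. The share of RDX was 15.2%, 16.2% and 13.2% in the controls and 21.1%, 21.0% and 21.5% after knockdown, and that of MSN was 28.1%, 28.5% and 30.1% against 37.8%, 35.4% and 35.7%. Ezrin was the largest part in all 6 of these libraries. In MDA-MB-468 the ezrin share was 62.8%, 60.2% and 60.1% in the controls, 59.3% in S4, and 51.6% and 50% in S5 and S6. There moesin held 30.6%, 32.2% and 33.6% in the controls and 34.7%, 41.0% and 42.2% in the knockdown libraries, with RDX between 6.0% and 7.7% throughout.

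AHNAK2 made up 6.8%, 6.1% and 5.5% of the summed RPKM of both AHNAK genes in the HCC1187 controls and 21.7%, 16.2% and 16.1% after knockdown. In MDA-MB-468 it made up 5.7%, 5.3% and 4.7% in the controls, 4.7% in S4, and 2.8% and 2.5% in S5 and S6. The share was thus higher after knockdown in one line and, S4 apart, lower in the other. ANXA1 made up 46.5%, 48.0% and 44.9% of the annexin pair in the HCC1187 controls and 36.8%, 38.6% and 36.1% after knockdown. Its share in MDA-MB-468 was 45.6%, 45.2% and 44.2% in the controls, 44.7% in S4, and 37.2% and 37.0% in S5 and S6. The HCC1187 shares restate the contrast that chose the genes, and no share was tested.

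**Figure D4:**
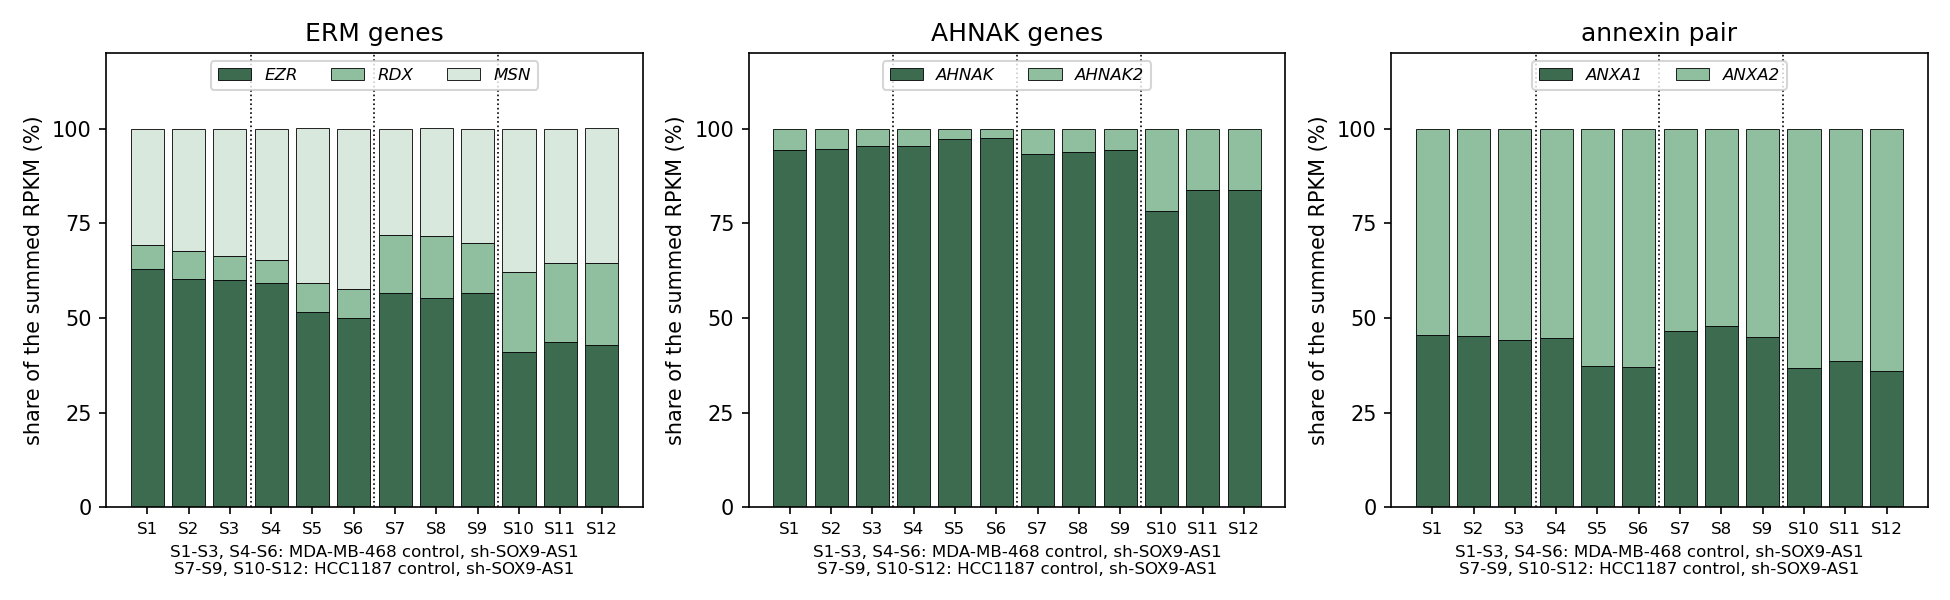
Share of the summed RPKM (%) that each gene holds within its family in the 12 libraries: EZR, RDX and MSN (left), AHNAK and AHNAK2 (middle), ANXA1 and ANXA2 (right); dotted lines separate the groups. The AHNAK2 share is 16.1% to 21.7% in S10 to S12 and 5.5% to 6.8% in S7 to S9.

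The genes whose profile over the 12 libraries was most like that of EZR were B4GALT1, COL12A1, SZRD1, FAM168B and POM121. Likeness was the root-mean-square difference in log2 CPM after centring each line on its controls, 0.085 to 0.116 for these genes, with a median of 0.555 over 8684 genes of at least 10 CPM in the controls of each line. The HCC1187 knockdown values that picked EZR and AHNAK enter this likeness, so genes close to them also had lower counts there. The closest of many genes lie under the median by construction, and nothing is read from the distances. B4GALT1, a galactosyltransferase of the Golgi, had −0.10, −0.28 and −0.59 from its controls in S4, S5 and S6 and −1.05, −0.89 and −0.97 in S10, S11 and S12. EZR itself had −0.02, −0.48 and −0.64, and −0.95, −0.82 and −0.98. For AHNAK the closest were ATP1B1, a subunit of the sodium pump, KCTD20, CAPNS1, TMEM39A and GORASP2, at 0.105 to 0.163 with a median of 0.633. CAPNS1, the small subunit of the calpain proteases, had 0.04, 0.07 and −0.01 in MDA-MB-468 and −1.06, −0.94 and −0.81 in HCC1187, where AHNAK had 0.15, 0.0 and −0.02, and −1.27, −1.01 and −1.16.

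Beyond these 8 genes, 8 lists of partners and relatives were counted in the same fits. The lists were chosen with earlier results of these data known, so their counts are a description and nothing is read from them. In HCC1187, 35 of their 126 tested genes were lower, 8 higher and 83 not past the threshold, that is 34.1% called beside 22.8% of all genes. By direction, 13.1% of all genes were lower and 9.78% higher. Among 18 tested kinases, phosphatases and other regulators of ERM proteins 8 were lower and 0 higher (median log2 −0.20, and 0.01 over all genes). RHOA, a GTPase upstream of ERM phosphorylation, had a log2 fold change of −0.36 ± 0.08, RHOC −0.52 ± 0.09, and PRKCI, an atypical protein kinase C of apical polarity, −0.53 ± 0.10. Of 21 genes around merlin and the Hippo core 8 were lower and 1 higher (median −0.21), with YAP1 at −0.61 ± 0.09 and MOB1B, a co-activator of the LATS kinases, at −1.21 ± 0.17. The membrane partners of ERM proteins had 2 of 12 lower and 1 higher. The lower ones were PODXL, a sialomucin linked to ezrin (−0.50 ± 0.11), and SDC2 (−0.36 ± 0.10). The higher one was CRB3, at 1.65 ± 0.43 (means of 0.475 and 1.64 CPM). CD44 had −0.34 ± 0.14, not past the threshold.

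Other FERM domain genes in HCC1187 had 7 of 30 lower and 4 higher. The phosphatase gene PTPN14 had −0.59 ± 0.09, and the kinase gene PTK2B 1.60 ± 0.23 (means of 2.31 and 7.37 CPM). Cortical actin and spectrin linkers had 6 of 19 lower and 1 higher, with FLNA (filamin A) at −0.46 ± 0.09 and VCL (vinculin) at −0.42 ± 0.09. Of 15 genes of membrane repair and caveolae 3 were lower and 0 higher, CAPNS1 (−0.98 ± 0.10), CAV1 (−0.37 ± 0.12) and EHD1 (−0.29 ± 0.10). The other annexins had 1 of 6 lower (ANXA5, −0.35 ± 0.09) and 1 higher (ANXA3, 0.89 ± 0.16). Among 5 tested S100 partners 0 passed in edgeR and 1 had an unadjusted p under 0.05, beside 5304 of all 14970 genes. S100A10, the AHNAK and annexin A2 partner, had −0.24 ± 0.09.

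In MDA-MB-468 with all 6 libraries 1 of 13638 genes passed in edgeR (2554 at an unadjusted p under 0.05) and 289 in DESeq2. Of the 127 listed genes 0 passed in edgeR (28 at an unadjusted p under 0.05), 3 in DESeq2 and 0 in limma-voom. Without S4, and with the same limit on its p-values, 45 were lower, 30 higher and 52 not past the threshold, 59.1% called beside 40.7% of all genes. By direction, 20.7% of all genes were lower and 20.0% higher in that fit. Caveolar and repair genes had 8 of 15 lower and 2 higher (median −0.32), with CAV1 (caveolin-1) at −1.29 ± 0.10 and CAVIN1 at −1.08 ± 0.10 on the log2 scale. Cortical linkers had 10 of 19 lower and 4 higher, with the beta-actin gene ACTB at −0.80 ± 0.08 (means of 5503 and 3111 CPM, S4 at 4845 CPM). Among 8 other annexins 5 were higher and 1 lower, with ANXA6 at 1.18 ± 0.11 and ANXA3 at −0.50 ± 0.08. Of 6 S100 partners 3 were higher and 0 lower: S100A13 (1.07 ± 0.10), S100A4 (0.77 ± 0.09) and S100A6 (0.61 ± 0.08). S4 had 382 CPM of S100A4 and 1164 CPM of S100A6, between the control means of 265 and 877 CPM and the means of S5 and S6 (445 and 1318 CPM). ERM regulators had 6 of 20 lower and 2 higher, with RHOB at −1.16 ± 0.17 and PRKCA at 1.5 ± 0.17. The merlin and Hippo list had 8 of 20 lower and 3 higher (AMOTL2 −1.12 ± 0.09, TEAD2 1.03 ± 0.10). Other FERM genes had 9 of 29 in each direction, and ERM membrane partners had 3 of 10 lower and 2 higher.

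Between the control libraries all 6 tested S100 partners were lower in HCC1187, where S100A6 averaged 0.0353 CPM against 877 CPM in MDA-MB-468, S100A4 1.65 against 265 CPM and S100A11 104 against 501 CPM. Of 8 other annexins 7 were lower (ANXA3 7.47 against 165 CPM) and 1 higher (ANXA6 169 against 24.7 CPM). Membrane partners of ERM proteins had 8 of 13 lower and 4 higher, with CD44 at 15.3 against 2225 CPM. Membrane repair and caveolae had 12 of 15 lower and 2 higher, with MYOF, a ferlin, at 24.2 against 819 CPM. Across the 8 lists 80 of 132 tested genes were lower in HCC1187, 42 higher and 10 not past the threshold (92.4% called, beside 84.1% of all genes), with a median log2 difference of −0.62, and 0.06 over all genes. Of all genes tested between the controls, 40.4% were lower in HCC1187 and 43.6% higher.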

How the data were processed

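RNA-seq gene counts of 12 libraries (4 groups of 3) were analysed. The submitters' processing notes name HISAT2 2.1.0 and featureCounts 2.0.0 with GRCh38, besides Trimmomatic 0.39, SAMtools, FastQC 0.11.9 and MultiQC 1.11. The strandedness, parameters and annotation of the counting were not given in the sources used here. Values that the authors deposited are raw counts, 1 column per library and lane, beside a deposited length in bases for each of 60675 genes. A group has 3 samples but 9 lane columns, and no column could be matched to a single sample. The column names do give the library number and lane, so the lanes of a library could have been summed. Lane 1 alone of each library was used, in place of the sum of lanes that had been planned. The other 24 of the 36 count columns were not used. Column names give the group but no replicate number.

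CPM uses library totals, and RPKM divides CPM by the deposited length. Each comparison was fitted across all genes by the quasi-likelihood test of edgeR 4.0.16 (R 4.3.3) after filterByExpr and trimmed-mean (TMM) scaling, with Benjamini-Hochberg adjustment and a threshold of 0.05. The SE comes from the fold change and its F statistic. The fit was tested on simulated data. Profiles used log2 CPM with 0.1 added. Alternatives were DESeq2 1.42.0, limma-voom (limma 3.58.1), other scalings and filters, all 12 libraries in one fit, an adjusted p of 0.01 and leaving out each library.

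The 8 genes were always named, with SOX9-AS1 as a check of the labels. Up to 4 genes per list and comparison by smallest p could be named, and the 5 genes closest in profile to EZR and to AHNAK. The level of 1 marker gene is not reported here. Members and lists were chosen with earlier results of these data known. No library pair of a group agreed within sampling noise (lowest chi-square per degree of freedom 1.95, S1 and S2, over 13001 genes).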

Additional observations from a re-analysis of the deposited data

Results flagged for a closer look

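For MSN and AHNAK2, and barely for ANXA2, every knockdown library lay on one side of its control mean in MDA-MB-468 and on the other side in HCC1187, in log2 CPM from library totals. AHNAK2 averaged −0.69 in MDA-MB-468 and 0.59 in HCC1187, though S4 alone had −0.02. MSN averaged 0.10 and −0.18. ANXA2 averaged 0.05 and −0.11, but S5 was at its control mean when rounded (0.0), and S11 and S12 had −0.04 and −0.03. The difference between the lines was not tested for any of them, since the HCC1187 contrast picked the genes.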

How the results depend on the processing

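No paired analysis was possible because the count columns carry no replicate number. The sum of lanes was not run. In MDA-MB-468 the number of genes past the threshold was 1 with all 6 libraries in edgeR, 289 with DESeq2, 0 with limma-voom (2709 at an unadjusted p under 0.05), 1441 with no filter on low counts, 887 with all 12 libraries in one fit and 0 in edgeR at an adjusted p under 0.01 (2554 at an unadjusted p under 0.05). Leaving out 1 library gave 0 to 5676 genes in edgeR: 5676 without S4, and 0 without S1, S2, S3, S5 or S6 (1181, 1167, 2294, 1023 and 1470 at an unadjusted p under 0.05). In HCC1187 the number was 3418, against 1499 with all 12 libraries in one fit and 1839 at an adjusted p under 0.01, and 2213 (without S8) to 3410 (without S11) when a library was left out. The control comparison gave 13108 genes and stayed within 1.5 times of that in every alternative run. In HCC1187 leaving out 1 library moved AHNAK between −1.30 and −1.13, EZR between −1.05 and −0.94 and AHNAK2 between 0.42 and 0.63. With 3 libraries a group, their number limits the precision.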
